A study of Mus musculus with 45 samples.

Results

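The Nrf2 and glutathione defence genes described here are a fixed list of 10 genes, namely Nfe2l2, Keap1, Nqo1, Hmox1, Gclc, Gclm, Txnrd1, Srxn1, Gsta2 and Slc7a11. They were found by symbol among the 55401 genes of the count tables, and all 10 were among the 15828 protein-coding genes that passed the filter on low counts in both sexes. They were followed in the translatome of mouse kidney tubules, obtained by translating ribosome affinity purification (TRAP) RNASeq, in which ribosomes carrying a tagged L10a subunit are pulled down and their mRNA sequenced. The study compared 45 mice of 7 weeks (postnatal day 49) in 6 groups. "Noncystic" mice carried Pkd1fl/+ (8 males, 7 females), Pkd1KO mice carried Pkd1fl/fl (7 males, 8 females) and Pkd1KO+ciliaKO mice carried Pkd1fl/fl together with Kif3afl/fl (9 males, 6 females), Kif3a being a motor subunit without which cilia are lost. All mice also had RosaEGFP-Rpl10a, Pax8rtTA and TetOCre and received doxycycline, so that Cre excision and ribosome tagging took place together in Pax8-expressing tubule cells and the noncystic mice are heterozygous for the Pkd1 deletion rather than wild type. A gene has the "CDCA pattern" (cilia-dependent cyst activation) if Pkd1KO differs in the same direction from noncystic and from Pkd1KO+ciliaKO kidneys. At this age the Pkd1KO kidneys have not yet formed cysts.

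Nrf2, the protein of Nfe2l2, is a transcription factor that is held in the cytoplasm and sent for degradation by Keap1. Oxidants and electrophiles modify Keap1, Nrf2 then accumulates, pairs with small Maf proteins and binds the antioxidant response element in front of genes for glutathione synthesis, quinone reduction, heme breakdown and thioredoxin recycling. In the kidney these genes are active mostly in the proximal tubule, which handles many oxidants and foreign compounds.

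The promoters of these genes were read first, since the element is what the targets share. RefSeq windows of GRCm38.p6 (250 bases before and 50 after each start) were at hand for 8 of the 10 genes, and Hmox1 and Gclc were not analysed here. The core letters TGACNNNGC, or GCNNNGTCA on the other strand, occurred in a window of 4 of the 8 genes (Nfe2l2, Gclm, Srxn1 and 1 of the 3 start sites of Txnrd1) and in 12.4% of all 32851 windows. The first count is by gene and the second by window, so they are not like for like. The 4 matches are shown because they mark where such letters lie, with 10 bases on each side and the match in capitals. The first 3 lie 240, 134 and 92 bases before the start, and the last begins 28 bases after it.
Nfe2l2, chr2:75704885-75704913, minus strand: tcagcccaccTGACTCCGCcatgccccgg
Gclm, chr3:122245413-122245441, plus strand: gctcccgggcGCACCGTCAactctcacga
Txnrd1, chr10:82859104-82859132, plus strand: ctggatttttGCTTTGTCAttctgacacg
Srxn1, chr2:152105542-152105570, plus strand: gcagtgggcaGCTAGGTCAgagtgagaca
The windows of Keap1, Nqo1, Gsta2 and Slc7a11 held no match, which says only that these letters are not in them. The Gsta2 window is at a RefSeq start inside the span of the gene as counted.

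Library depth ranged from 80874556 to 132958186 counts (median 103070359), so that counting error was small for 9 of the 10 genes, whose lowest count in any mouse was 1268. Levels are given as CPM (library-size scaled counts, with TMM factors over the 45 mice), and levels of different genes are compared as TPM, which also divides by transcript length. Proximal tubule markers summed to between 5235 and 12100 CPM in every mouse and the 9 macrophage markers to between 46.2 and 429 CPM. Kif3a was 4.90 to 7.45 CPM in male Pkd1KO+ciliaKO mice and 13.8 to 29.3 CPM in the other males. In females the library labelled noncystic replicate 5 had 6.69 CPM of Kif3a and the library labelled Pkd1KO+ciliaKO replicate 6 had 20.7 CPM, each near the other group. Female results of the members were therefore also computed without these 2 libraries, and calls of named genes lost without them are given beside the result. In earlier work with these data 4 males (noncystic replicate 3, Pkd1KO replicate 4, Pkd1KO+ciliaKO replicates 6 and 8) stood apart from their groups on the first principal component. That was not recomputed here, and the study reported that its own principal component analysis did not point to significant outliers. These males were kept, and male results were also computed without them. Because the pulldown is of bulk tissue, fewer cells of a type and less RNA per cell cannot be told apart.

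Gsta2 was the only member called lower in Pkd1KO tubules than in both other genotypes, and this was so in both sexes. Gsta2 encodes an alpha class glutathione S-transferase, an enzyme that joins glutathione to electrophiles and lipid peroxidation products. It lies at chr9:78331018-78355788 on the minus strand of GRCm38. In males it was 56.0 to 137 CPM in noncystic mice (median 109), 22.7 to 97.3 CPM in Pkd1KO (median 38.0) and 94.0 to 323 CPM in Pkd1KO+ciliaKO (median 115). Of the 7 Pkd1KO males, 5 were at 44.9 CPM or less, below every mouse of the other male groups, while replicates 2 and 7 had 85.2 and 97.3 CPM. Replicate 2 lay within the noncystic range alone and replicate 7 within the ranges of both other groups. In females it was 416 to 529 CPM in noncystic mice (median 440), 259 to 403 CPM in Pkd1KO (median 322) and 352 to 587 CPM in Pkd1KO+ciliaKO (median 432). All 8 Pkd1KO females lay below all 7 noncystic females.

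In fits of edgeR's quasi-likelihood test over all genes, Gsta2 fell by 1.09 on the log2 scale in male Pkd1KO against noncystic (SE 0.287, 0.471-fold, adjusted p = 0.0318) and by 1.76 against Pkd1KO+ciliaKO (SE 0.349, 0.296-fold, adjusted p = 0.00851). In females the edgeR values were −0.46 (SE 0.0806, 0.725-fold, adjusted p = 0.00309) and −0.45 (SE 0.109, 0.731-fold, adjusted p = 0.0148). The 2 comparisons of a sex share the Pkd1KO mice. Lower levels with the CDCA pattern were found for 0.519% of the 15991 genes tested in males and for 0.808% of the 15968 tested in females, and 38 genes had them in both sexes. For Gsta2 in Pkd1KO+ciliaKO against noncystic no difference was called in females (log2 difference −0.02, SE 0.102, adjusted p = 0.937). In males the difference was 0.67 (SE 0.251, adjusted p = 0.104 by edgeR). Without the 2 female libraries in doubt the female values were −0.48 and −0.45, both past the threshold (edgeR, adjusted p = 0.00456 and 0.0261). Without the 4 males that stand apart the male values were −0.90 (edgeR, adjusted p = 0.0733) and −1.31 (adjusted p = 0.0222). The call against male noncystic was also lost when any 1 of noncystic replicates 3, 5, 6, 7 and 8 or Pkd1KO replicates 1, 3, 4, 5 and 6 was left out, with log2 values over all single omissions from −1.32 to −0.95 and adjusted p of at most 0.0696 in edgeR.

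Markers of other tubule segments and of macrophages also moved with the male result. The 4 thick ascending limb markers summed to 1991 to 3378 CPM in Pkd1KO males (median 2064), against 2307 to 4500 CPM in noncystic (median 3222) and 2328 to 4268 CPM in Pkd1KO+ciliaKO males (median 3439). Of them only Slc12a1, the salt transporter of that segment, was called lower against both (log2 −0.72 and −0.73, edgeR adjusted p = 0.0220 and 0.0454). The 8 proximal tubule markers had medians of 8443, 11070 and 7861 CPM in Pkd1KO, noncystic and Pkd1KO+ciliaKO males. The 9 macrophage markers summed to 103 to 429 CPM in Pkd1KO males, against 77.1 to 112 CPM in noncystic and 66.4 to 117 CPM in Pkd1KO+ciliaKO males. The 429 CPM was replicate 4, a male that stands apart, and the next Pkd1KO male had 142 CPM. Of the 9 only Csf1r was called higher against both (log2 0.35 and 0.77, edgeR adjusted p = 0.0193 and 0.00187). Ptprc, for example, was at 0.22 and 0.015 (adjusted p = 0.668 and 0.981). In females the thick ascending limb medians were 3491, 3591 and 4488 CPM and the proximal tubule medians 9351, 9076 and 8360 CPM in the same order of genotypes. The part of these markers in the Gsta2 results was not tested.

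**Figure D1:**
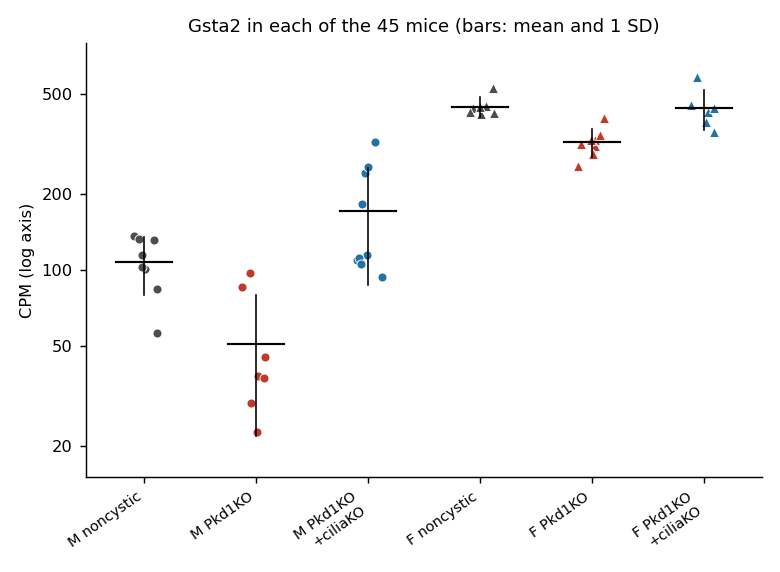
Gsta2 in CPM (log axis) in each of the 45 mice by sex (M, F) and genotype, with circles for males and triangles for females, and horizontal and vertical bars for the mean and 1 SD. Pkd1KO is the lowest group of each sex, with 5 of 7 males at 44.9 CPM or less and all 8 females below the 7 noncystic females.

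Reads of Gsta2 can also come from close relatives. Of the 1038 stretches of 150 bases in its 3 protein-coding transcripts (GENCODE vM21), 18.6% also occur in transcripts of Gsta1, Gm3776 or Gm10639, so that some reads cannot be assigned with certainty. Counts of Gsta1 were 2 to 115 and those of Gm3776 0 to 39 per mouse, against 2363 to 74130 for Gsta2. Gm10639 had 103 to 1217 counts in males and 736 to 4916 in females. The letters in front of the RefSeq records of Gsta2 and Gsta1 are shown for their likeness, cut at the start of each RefSeq gene record (203 and 250 bases). The longest run that both have, of 29 bases, is in capitals. The Gsta2 stretch lies inside the span of the gene as counted (chr9:78331018-78355788), which begins further upstream.
Gsta2, chr9:78347193-78347395, minus strand: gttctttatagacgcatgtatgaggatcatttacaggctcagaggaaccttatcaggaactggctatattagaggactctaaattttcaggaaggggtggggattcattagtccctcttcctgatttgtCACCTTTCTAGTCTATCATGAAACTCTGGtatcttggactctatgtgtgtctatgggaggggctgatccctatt
Gsta1, chr9:78230419-78230668, plus strand: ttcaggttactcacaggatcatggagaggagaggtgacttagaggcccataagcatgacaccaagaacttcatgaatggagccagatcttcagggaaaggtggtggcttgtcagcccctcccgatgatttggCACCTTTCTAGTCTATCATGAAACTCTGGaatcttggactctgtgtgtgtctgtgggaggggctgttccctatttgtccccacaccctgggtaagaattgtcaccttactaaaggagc

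Gsta2 was also the member with the widest sex difference. Every male of a genotype had less Gsta2 than every female of that genotype. The male level was 0.244-fold the female level in noncystic mice (log2 −2.04, SE 0.149, adjusted p = 4.91e-08), 0.157-fold in Pkd1KO (log2 −2.67, SE 0.274, adjusted p = 2.48e-06) and 0.389-fold in Pkd1KO+ciliaKO (log2 −1.36, SE 0.260, adjusted p = 0.00253), all by edgeR. From highest to lowest mean the 6 groups were female noncystic (446 CPM ± 39.0, SD, n = 7), female Pkd1KO+ciliaKO (440 ± 80.5, n = 6), female Pkd1KO (323 ± 42.0, n = 8), male Pkd1KO+ciliaKO (171 ± 84.0, n = 9), male noncystic (107 ± 27.7, n = 8) and male Pkd1KO (50.7 ± 28.8, n = 7). Without the 4 males that stand apart the log2 values were −2.10, −2.55 and −1.68, all past the threshold (edgeR, adjusted p = 1.93e-08, 1.42e-06 and 2.22e-05). The first 2 groups in the order of means were not called different. Nor were the male Pkd1KO+ciliaKO and male noncystic groups, where the adjusted p was 0.104 and the unadjusted p 0.0154 (edgeR).

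Whether the genotype effect on Gsta2 differed between the sexes was tested as an interaction. For Pkd1KO against Pkd1KO+ciliaKO the male minus the female effect was −1.31 on the log2 scale (SE 0.350), which did not pass the threshold (edgeR, adjusted p = 0.122). DESeq2 gave it an adjusted p of 0.0357, within a range of 0.0357 to 0.286 over the 6 alternatives. Against noncystic the interaction was −0.62 (SE 0.344, edgeR adjusted p = 0.690). No member passed the threshold in any of the 3 interactions, in which 0.0126% (Pkd1KO versus noncystic), 0.221% (Pkd1KO versus Pkd1KO+ciliaKO) and 0.0316% (Pkd1KO+ciliaKO versus noncystic) of 15828 genes were called by edgeR. At an unadjusted p under 0.05 there were 0, 2 (Gsta2 and Gclm) and 0 members.

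Sex-biased proximal tubule genes differed from their group in several of the males with much Gsta2. The 3 males with the most Gsta2 were Pkd1KO+ciliaKO replicates 6, 8 and 3, with 323, 256 and 244 CPM. The 4 genes of a list known for higher levels in the female proximal tubule (Slc7a12, Cyp4a14, Prlr, Hao2) summed to 675, 588 and 363 CPM in these 3 mice, against a median of 242 CPM in their group and 132 CPM in noncystic males. The 7 male-biased genes (such as Slco1a1 and Cyp7b1) summed to 330 and 384 CPM in replicates 6 and 8, against a group median of 2438 CPM and 158 to 376 CPM in females, while replicate 3 had 2293 CPM, near that median. Noncystic male replicate 3, highest of its group in Gsta2 with 137 CPM, had 1004 CPM of the male-biased genes against a group median of 3843 CPM. This mouse and Pkd1KO+ciliaKO replicates 6 and 8 bear the lowest mouse numbers of the series, and no Pkd1KO male is among them. The bearing of this on Gsta2 was not tested. In Pkd1KO males the medians were 3595 and 176 CPM for the male-biased and female-biased genes. Within that group replicate 4, with the least Gsta2 (22.7 CPM), had the lowest male-biased sum (1839 CPM). Replicate 7, with the most (97.3 CPM), had 3723 CPM. The female-biased sums of these mice were 176 and 195 CPM. Replicate 2, next to replicate 7 in Gsta2, had the highest female-biased sum of the group, 230 CPM, and a male-biased sum of 3096 CPM. In females the female-biased sum was 1055 to 2349 CPM in Pkd1KO and 1127 to 1592 CPM in noncystic mice. The part of these sums in the Gsta2 results was not tested.

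**Figure D2:**
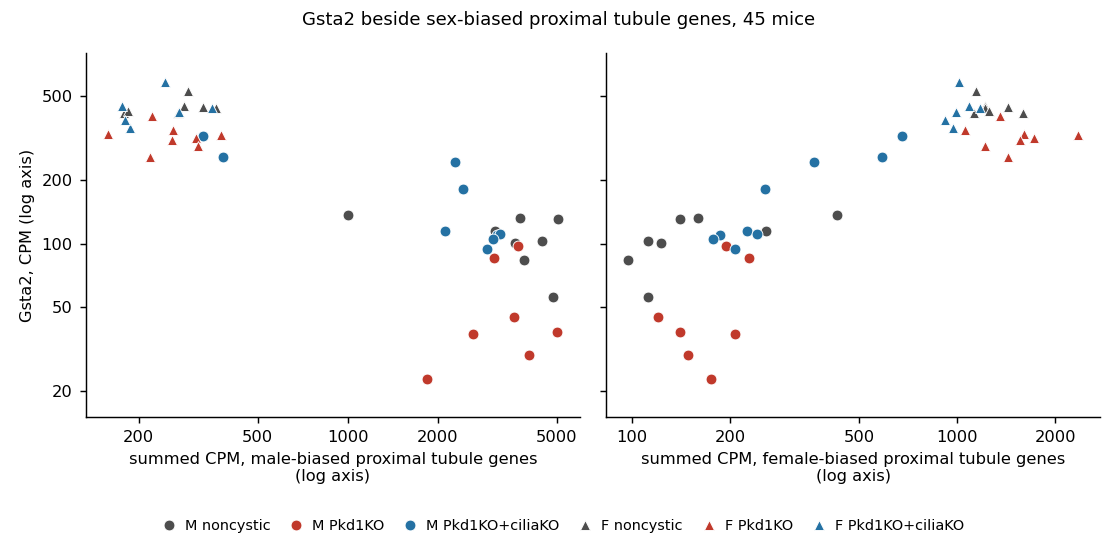
Gsta2 in CPM against the summed CPM of 7 male-biased (left) and 4 female-biased (right) proximal tubule genes in the 45 mice, all axes log, circles for males (M) and triangles for females (F). Males of Pkd1KO+ciliaKO with little male-biased and much female-biased signal, such as the mice with 323 and 256 CPM, sit toward the females.

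Other glutathione S-transferases were taken from a list of 22 family members beside Gsta2. In Pkd1KO against noncystic, 2 of 22 were lower and 0 higher in males (Gsta4 and Gsto2), and 2 were lower and 1 higher in females (Gsta4, Gstm4 and, higher, Gstm5), where 6.3% of all genes were called in males and 3.34% in females. Gsto2 was not called without the 4 males that stand apart (adjusted p = 0.0749). The median log2 difference of the 22 was −0.09 in males and −0.14 in females, against −0.01 and −0.0008 over all genes. Gsta4, which clears the lipid peroxidation product 4-hydroxynonenal, was lower in both sexes. It fell by 0.56 on the log2 scale in males (SE 0.106, adjusted p = 0.00418) and by 0.56 in females (SE 0.101, adjusted p = 0.00416, edgeR), with 82.4 to 127 CPM in Pkd1KO females and 137 to 203 CPM in noncystic females. Against Pkd1KO+ciliaKO it was lower in females (log2 −0.48, SE 0.0976, edgeR adjusted p = 0.00570), a comparison in which 11.7% of all genes were called. Gstm5, a mu class enzyme, was higher in Pkd1KO females than in noncystic (log2 0.40, adjusted p = 0.00963) and Pkd1KO+ciliaKO females (log2 0.63, adjusted p = 0.000679). In males Gsta3 was the 1 gene of the 22 called in Pkd1KO against Pkd1KO+ciliaKO (log2 −0.42, edgeR adjusted p = 0.0430), where 3.77% of all genes were called. Gsta4 was at −0.77 there (SE 0.243, edgeR adjusted p = 0.0854). Without the 4 males that stand apart Gsta3 was not called (log2 −0.33, adjusted p = 0.0545).

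Between the sexes, males had lower levels of 13 and higher levels of 2 of the 22 genes in noncystic mice, again of 13 and 2 in Pkd1KO, and of 6 and 2 in Pkd1KO+ciliaKO, while 27.5%, 27.2% and 14.6% of all 15828 genes were called in these 3 comparisons. The median log2 difference (male minus female) of the list was −0.45, −0.36 and −0.19, against −0.01, 0.01 and −0.01 over all genes. Gsta4 was 0.246-fold the female level in noncystic males (log2 −2.02, SE 0.111, edgeR adjusted p = 2.70e-09), and Gsto1, an omega class glutathione S-transferase, was 0.574-fold (log2 −0.80, SE 0.0958, adjusted p = 9.59e-06). Gstp1 and Gstz1 were higher in noncystic males, Gstp1 not past the threshold without the 2 female libraries in doubt (adjusted p = 0.0559). Without the 4 males that stand apart, 17 in place of 8 of the list were called in Pkd1KO+ciliaKO. The share of all genes called in that fit is not given here, so the rise cannot be read as particular to the list.

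Of the regulators, neither Nfe2l2 nor Keap1 differed between genotypes in either sex past the threshold. Nfe2l2 (chr2:75675513-75704641) had medians of 162, 143 and 158 CPM in noncystic, Pkd1KO and Pkd1KO+ciliaKO males and of 177, 181 and 184 CPM in females. The groups overlapped throughout. The log2 difference between Pkd1KO and noncystic was −0.18 in males (SE 0.0950, adjusted p = 0.292) and −0.05 in females (SE 0.0646, adjusted p = 0.789), and between Pkd1KO and Pkd1KO+ciliaKO −0.21 (SE 0.117) and −0.14 (SE 0.0937). Keap1 (chr9:21229730-21239361), the adaptor that presents Nrf2 to the Cul3 ubiquitin ligase, stayed within 34.6 to 45.1 CPM over all 45 mice, and no group mean was above 40.5 or below 36.4 CPM. An antisense gene, Gm16754, overlaps at most 3280 of its 4693 exonic bases, a sum over annotated exons in which a base can count more than once. Since the strand setting of the counting was not given in the sources used here, reads of Gm16754 (1 to 45 per mouse) cannot be told apart from those of Keap1 in the overlap.

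Both regulators differed between the sexes in Pkd1KO mice. Nfe2l2 was 130 to 189 CPM in Pkd1KO males and 152 to 197 CPM in Pkd1KO females (log2 −0.26, SE 0.0807, edgeR adjusted p = 0.0250). Keap1 was 37.0 to 42.0 CPM in those males and 34.6 to 38.4 CPM in those females (log2 0.11, SE 0.0399, edgeR adjusted p = 0.0433). The call of Nfe2l2 was lost without male Pkd1KO replicate 7 (−0.23 to −0.32 over single omissions, highest adjusted p = 0.0543). That of Keap1 was lost when any 1 of 13 of the 15 mice was left out, all but male replicate 7 and female replicate 5 (highest adjusted p = 0.0915), and without the 4 males that stand apart (adjusted p = 0.0629), with no filter on low counts (adjusted p = 0.0935) and with the replicate number as a block (adjusted p = 0.158). Without those males Nfe2l2 was lower in males than females in all 3 genotypes (log2 −0.18, −0.29 and −0.33, edgeR adjusted p = 0.0404, 0.0168 and 0.0156).

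**Figure D3:**
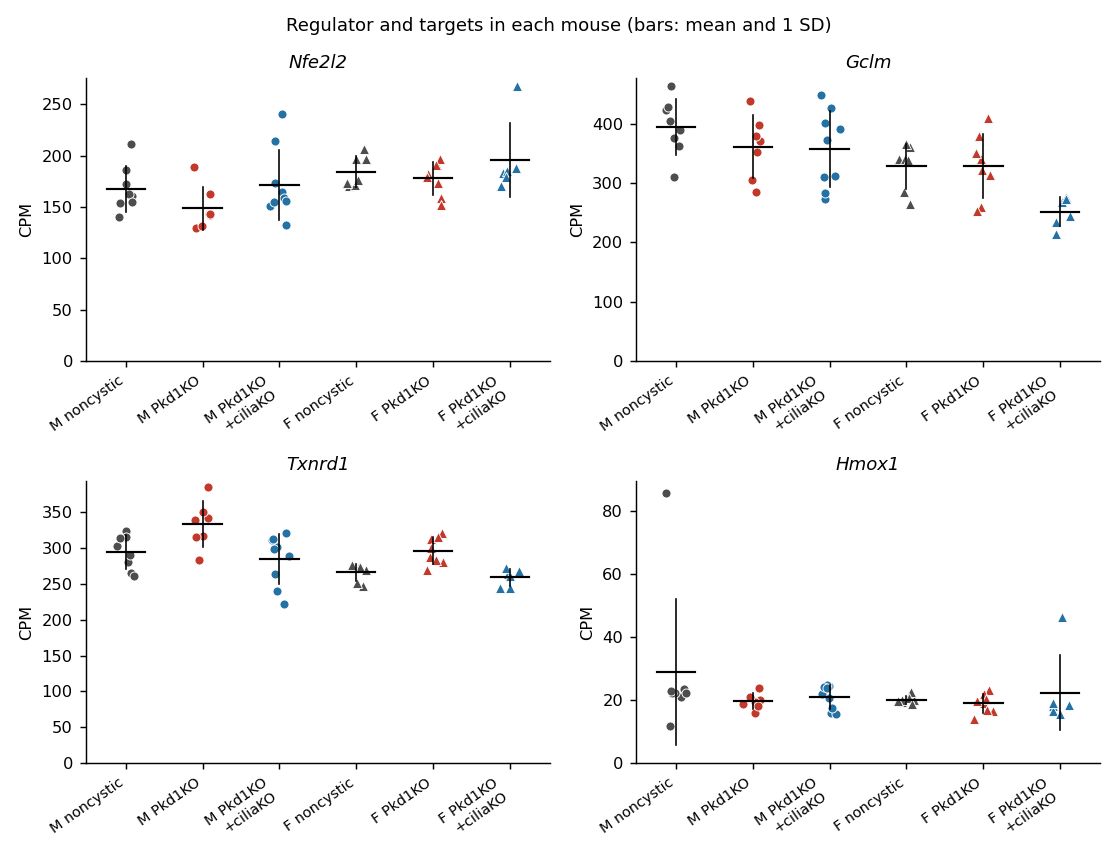
CPM of the regulator Nfe2l2 and of the targets Gclm, Txnrd1 and Hmox1 in each mouse by sex (M, F) and genotype, with bars for the mean and 1 SD and axes from 0. Nfe2l2 overlaps among all groups, Gclm is low in all 6 female Pkd1KO+ciliaKO mice (214 to 276 CPM), and Hmox1 has 1 male noncystic mouse at 85.5 CPM.

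A further list of 10 genes holds genes that act on Nrf2 or pair with it, beside Bach1 and Nfe2l1. The median log2 difference of the 10 between Pkd1KO and noncystic was −0.04 in males and 0.006 in females. Of them Maff, a small Maf partner, was the 1 called between genotypes in any of the 6 comparisons, in which 2.54% to 11.7% of all genes were called, and it was higher in male Pkd1KO than noncystic mice (5.44 against 2.96 CPM, log2 0.88, SE 0.245, edgeR adjusted p = 0.0420). Without the 4 males that stand apart its value was 0.72 (adjusted p = 0.0860). Bach1, a repressor at the same elements, and Btrc, a subunit of a second ubiquitin ligase for Nrf2, passed the threshold in none of the 6 genotype comparisons. Bach1 was higher in males than females among noncystic (log2 0.32, edgeR adjusted p = 0.00418) and Pkd1KO mice (log2 0.22, adjusted p = 0.00751). Sqstm1, which binds Keap1, was likewise higher in males of both genotypes (log2 0.39 and 0.24, adjusted p = 0.00259 and 0.0114). Nfe2l1, a relative of Nfe2l2, was lower in Pkd1KO males than Pkd1KO females (log2 −0.41, edgeR adjusted p = 0.000517).

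Among the enzymes of glutathione synthesis, Gclm changed in females and Gclc in no comparison. Gclc and Gclm encode the catalytic and modifier subunits of glutamate-cysteine ligase, which carries out the first and rate-limiting step. Gclm (chr3:122245557-122270732) was 265 to 366 CPM in female noncystic mice (median 340), 254 to 410 CPM in female Pkd1KO (median 332) and 214 to 276 CPM in female Pkd1KO+ciliaKO (median 257). Of the noncystic females 6 of 7, and of the Pkd1KO females 6 of 8, had more Gclm than any of the 6 Pkd1KO+ciliaKO females. The edgeR log2 difference was −0.38 for Pkd1KO+ciliaKO against noncystic (SE 0.0878, 0.766-fold, adjusted p = 0.0364) and 0.38 for Pkd1KO against Pkd1KO+ciliaKO (SE 0.104, 1.30-fold, adjusted p = 0.0269). Between Pkd1KO and noncystic females it was 0.004 (SE 0.102).

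Without the 2 female libraries in doubt the 2 Gclm differences were −0.38 and 0.41, both past the threshold (edgeR, adjusted p = 0.0356 and 0.0331). On log2(TPM + 1) with limma neither passed, the higher adjusted p of the 2 TPM scales being 0.103 and 0.0932, and with the replicate number as a block neither did (edgeR, adjusted p = 0.0615 and 0.0727). The call against noncystic was lost without any 1 of noncystic replicates 2, 3, 4, 6 and 7 or Pkd1KO+ciliaKO replicates 2, 3 and 4 (log2 −0.43 to −0.34 over single omissions, highest adjusted p = 0.0861), and that against Pkd1KO without Pkd1KO replicate 6 or 8 or Pkd1KO+ciliaKO replicate 1, 2 or 4 (log2 0.33 to 0.43, highest adjusted p = 0.0585). The 4 markers of the proximal tubule S3 segment moved with these differences, with sums of 431 to 715 CPM in female Pkd1KO+ciliaKO against 677 to 1196 CPM in noncystic and 697 to 1402 CPM in Pkd1KO females. Their part in the result was not tested.

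In males Gclm did not pass the threshold between genotypes (medians 397, 371 and 373 CPM). It was higher in males than females among noncystic mice (395 CPM ± 47.2 against 328 ± 38.3, SD, log2 0.28, edgeR adjusted p = 0.0273) and among Pkd1KO+ciliaKO mice (358 ± 64.6 against 252 ± 24.9, log2 0.51, edgeR adjusted p = 0.00800). In noncystic mice this call was lost without male replicate 2, 5 or 7 or female replicate 1 or 3 (log2 0.24 to 0.32, highest adjusted p = 0.0568). The sums of the 4 S3 markers were 2315 to 4044 CPM in noncystic males and 677 to 1196 CPM in noncystic females. The largest of the 4 was Atp11a, with means of 2829 CPM in noncystic males and 716 CPM in noncystic females. The sum also holds the male-biased gene Slc7a13. The part of these markers in the result was not tested. The genes Gm17494, on the other strand, and Gm6061, a pseudogene on the same strand, overlap at most 540 exonic bases of Gclm.

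Gclc was 479 to 777 CPM in noncystic, 533 to 983 CPM in Pkd1KO and 283 to 852 CPM in Pkd1KO+ciliaKO males, and 322 to 907, 318 to 1025 and 352 to 570 CPM in the 3 female groups. Its spread within groups (SD of 15.4% to 43.5% of the mean) was wide. Its log2 difference between Pkd1KO and noncystic was 0.34 in males (SE 0.127, adjusted p = 0.121) and −0.20 in females (SE 0.245, adjusted p = 0.783). Slc7a11, the cystine transporter that feeds glutathione synthesis, was close to absent. It had 4 to 49 counts per mouse (0.0415 to 0.459 CPM), 4 counts being just above the floor of 3, and differences between groups were not detectable at this depth, with SEs of 0.32 to 0.37 on the log2 scale in the genotype comparisons.

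Beyond the members, 12 genes of glutathione synthesis and recycling held 1 higher and 1 lower in Pkd1KO against noncystic females (Chac2 and Gpx3), and none in males (0 of 12; 6.3% of all genes in males and 3.34% in females were called). The medians of the 12 were −0.06 in females and −0.09 in males. Gss, the second enzyme of the pathway, was 138 to 187 CPM in Pkd1KO, 121 to 175 CPM in noncystic and 86.3 to 124 CPM in Pkd1KO+ciliaKO females. The Pkd1KO females lay above all Pkd1KO+ciliaKO females (log2 0.53, SE 0.0925, edgeR adjusted p = 0.00248), and Pkd1KO+ciliaKO was below noncystic (log2 −0.43, SE 0.0932, adjusted p = 0.0311). Chac2, which breaks glutathione down, was higher in Pkd1KO females than in both other genotypes (log2 0.34 and 0.46, edgeR adjusted p = 0.0360 and 0.00844), the first not past the threshold without the 2 female libraries in doubt (log2 0.35, adjusted p = 0.0511). Glrx, a glutaredoxin, was lower in Pkd1KO+ciliaKO than noncystic males (log2 −0.62, adjusted p = 0.0124). Gss was higher in males than females in every genotype without overlap (log2 0.78, 0.71 and 0.96 in noncystic, Pkd1KO and Pkd1KO+ciliaKO, with edgeR adjusted p of 4.11e-06, 7.45e-06 and 0.000114).

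Txnrd1, the cytosolic thioredoxin reductase, was higher in Pkd1KO than Pkd1KO+ciliaKO females. It was 269 to 322 CPM in Pkd1KO females (median 294), 244 to 272 CPM in Pkd1KO+ciliaKO (median 263) and 247 to 276 CPM in noncystic females (median 272). All but 1 of the Pkd1KO females lay above every mouse of the other female groups. Against Pkd1KO+ciliaKO the log2 difference was 0.19 (SE 0.0551, 1.14-fold, edgeR adjusted p = 0.0343), and against noncystic it was 0.16 (SE 0.0513, adjusted p = 0.112). The call was lost when any 1 of 8 mice was left out, namely Pkd1KO replicates 1, 2, 5 and 8 and Pkd1KO+ciliaKO replicates 2 to 5 (log2 0.17 to 0.21, highest adjusted p = 0.0906), and with limma on the TPM values (adjusted p of up to 0.269) or the replicate number as a block (adjusted p = 0.130). Without the 2 female libraries in doubt it was kept (log2 0.21, edgeR adjusted p = 0.0392). Between the sexes Txnrd1 was not called, but it was so in all 3 genotypes without the 4 males that stand apart (log2 0.18, 0.20 and 0.21, higher in males, edgeR adjusted p = 0.0197, 0.0198 and 0.00857). In males the differences between genotypes were 0.23 against Pkd1KO+ciliaKO (SE 0.0836, adjusted p = 0.136) and 0.18 against noncystic (SE 0.0711, adjusted p = 0.153).

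Srxn1, which restores oxidised peroxiredoxins, and Nqo1, a quinone reductase often used as a readout of Nrf2, were called in no comparison. Nqo1 medians were 48.4, 52.3 and 47.1 CPM in noncystic, Pkd1KO and Pkd1KO+ciliaKO males and 40.9, 43.8 and 40.4 CPM in females, with log2 differences between Pkd1KO and noncystic of 0.12 (SE 0.117) and 0.03 (SE 0.142). Srxn1 was 126 to 160 CPM in Pkd1KO and 153 to 172 CPM in noncystic females (log2 −0.14, SE 0.0524, adjusted p = 0.170). Among 13 thioredoxins and peroxiredoxins none was called in Pkd1KO against noncystic in either sex, with medians of −0.07 in males and −0.03 in females, where 6.3% and 3.34% of all genes were called. Txn2, the mitochondrial thioredoxin, was lower in Pkd1KO+ciliaKO than noncystic females (log2 −0.25, adjusted p = 0.0454), and Sesn3, a sestrin, was higher in Pkd1KO+ciliaKO than noncystic males (log2 0.25, edgeR adjusted p = 0.0341). Prdx1 was higher in males in every genotype (log2 0.38, 0.34 and 0.33, adjusted p = 0.00655, 0.0146 and 0.0164).

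Hmox1, heme oxygenase 1, was called in no comparison, and 2 mice stood far from their groups. Male noncystic replicate 5 had 85.5 CPM, where the other 7 noncystic males had 11.9 to 23.5 CPM. Female Pkd1KO+ciliaKO replicate 1 had 46.3 CPM, where the other 5 had 15.5 to 19.1 CPM. The log2 difference between Pkd1KO and noncystic males was −0.56 (SE 0.313, adjusted p = 0.308) with that male and −0.09 (SE 0.131, adjusted p = 0.745) without it. The medians of the 6 groups lay between 18.3 and 22.2 CPM.

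**Figure D4:**
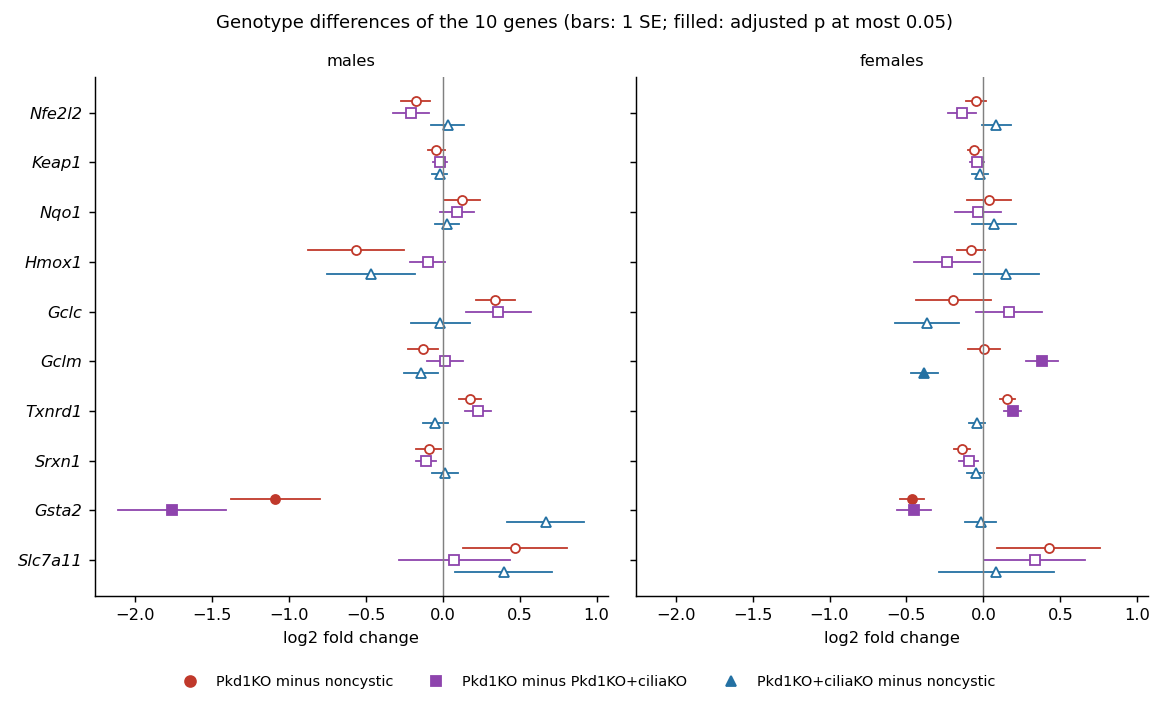
Log2 fold change of each of the 10 genes in the 3 genotype comparisons of males (left) and females (right), with bars of 1 SE and filled symbols for an adjusted p of at most 0.05 in edgeR. Gsta2 is left of 0 in Pkd1KO against both other groups in both sexes, and Gclm and Txnrd1 are filled in females only.

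Counted over the members, 1 of 10 was called and lower in Pkd1KO against noncystic in males, where 6.3% of the 15991 genes tested were called, and 1 of 10 in females (3.34% of 15968). Against Pkd1KO+ciliaKO, 1 was lower in males (3.77% of all genes), and 1 was lower and 2 higher in females (11.7%). For Pkd1KO+ciliaKO against noncystic no member was called in males, where 8.89% of all genes were and no member but Gsta2 had an unadjusted p under 0.05, and 1 was lower in females (2.54%). The limma and DESeq2 alternatives also called 0 in that male comparison. The median log2 difference of the members lay between −0.07 and 0.0008 in these 6 comparisons, against −0.01 to 0.01 over all genes. Between the sexes 1 member was lower and 1 higher in males in noncystic and in Pkd1KO+ciliaKO mice, and 2 were lower and 1 higher in Pkd1KO, where 27.5%, 14.6% and 27.2% of all genes were called in noncystic, Pkd1KO+ciliaKO and Pkd1KO mice.

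**Figure D5:**
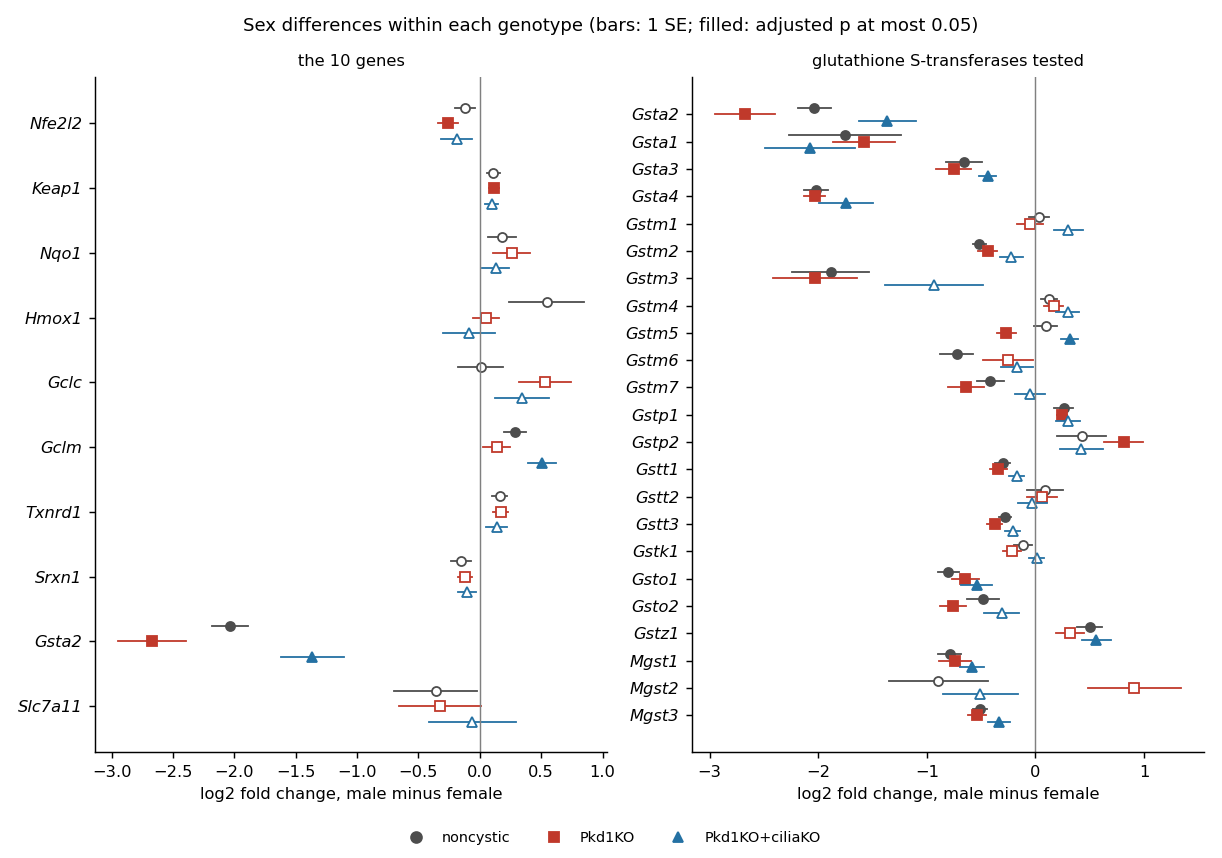
Log2 fold change, male minus female, of the 10 genes (left) and of Gsta2 and the 22 other glutathione S-transferases (right) in each genotype, with bars of 1 SE and filled symbols for an adjusted p of at most 0.05 in edgeR. Gsta2 and Gsta4 lie near −2 in noncystic mice, and most other family members lie to the left of 0.

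A list of 6 enzymes of the pentose phosphate pathway or of NADPH production had no called gene in Pkd1KO against noncystic in either sex (medians −0.11 in males and −0.08 in females, with 6.3% and 3.34% of all genes called). NADPH is the reductant behind these reactions, and not every enzyme of the list makes it. Idh1, a cytosolic isocitrate dehydrogenase, was lower in Pkd1KO than in Pkd1KO+ciliaKO males with no overlap (354 against 516 CPM, log2 −0.54, SE 0.0866, edgeR adjusted p = 0.00163), and higher in Pkd1KO+ciliaKO than in noncystic males (log2 0.35, adjusted p = 0.0327). Taldo1 was called in no genotype comparison. Me1, malic enzyme, was 2.23-fold higher in males than females among noncystic mice (log2 1.16, SE 0.128, edgeR adjusted p = 4.11e-06).

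Of 15 other known Nrf2 targets none was called in Pkd1KO against noncystic in either sex (6.3% and 3.34% of all genes were), and 4 were higher and 1 (Fth1) lower in Pkd1KO against Pkd1KO+ciliaKO females, where 11.7% of all genes were called and the median of the 15 was −0.10. The 4 higher ones were Abcc3, an efflux pump for conjugates (146 against 67.5 CPM, log2 1.11, SE 0.255, edgeR adjusted p = 0.0115), Osgin1 (log2 0.78, adjusted p = 0.00509), Cbr1, a carbonyl reductase (log2 0.62, adjusted p = 0.0448), and Blvrb, a biliverdin reductase (log2 0.29, adjusted p = 0.0345). Without the 2 female libraries in doubt Cbr1, Blvrb and Fth1 were not called (log2 0.65, 0.29 and −0.41, adjusted p = 0.0557, 0.0624 and 0.0554). Abcc3, Cbr1 and Blvrb were also lower in Pkd1KO+ciliaKO than noncystic females (log2 −0.93, −0.60 and −0.32, edgeR adjusted p = 0.0209, 0.0293 and 0.0257). Abcc3 was higher in females than males in every genotype (male level 0.0294-fold in noncystic, log2 −5.09, SE 0.392, adjusted p = 7.26e-08), and so was Cbr1 (0.146-fold, log2 −2.78, SE 0.0887, adjusted p = 1.80e-12). Of the pathway lists Cbr1 was the 1 gene called in an interaction, with log2 −1.26 (SE 0.283, edgeR adjusted p = 0.0316) for Pkd1KO against Pkd1KO+ciliaKO. In males that comparison gave −0.63 for Cbr1 (SE 0.242, edgeR adjusted p = 0.154) and −1.10 for Abcc3 (adjusted p = 0.282). Osgin1, Blvrb and Fth1 were at 0.22, 0.12 and 0.11 there, and none of these genes was called. The interaction of Cbr1 is given for all 45 mice only, with the libraries in doubt kept.

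By length-corrected level Gsta2 was the most abundant member in females, with median TPM of 908 to 1265 in the 3 groups, and Gclc in males, with 456 to 518. The TPM tables of the sexes were made separately. Srxn1, Gclm, Nfe2l2 and Txnrd1 had group medians of 109 to 200 TPM, Nqo1 of 84.7 to 95.0, Hmox1 of 31.8 to 37.1, Keap1 of 24.2 to 28.3 and Slc7a11 of 0.0294 to 0.0564. Over the 45 mice, after each group's mean was subtracted, log2 CPM of Gclc and Txnrd1 correlated with Pearson's r = 0.56 (Spearman's rho = 0.49), Nfe2l2 and Keap1 with r = 0.54 (rho = 0.48), and Nfe2l2 and Gclm with r = −0.63 (rho = −0.55). The genes most like Nfe2l2 in this measure were Caskin2, Dsp and Got1 (r = 0.84, 0.83 and 0.83), and those most like Nqo1 were Gpt, Cth and Sult1d1 (r = 0.71, 0.70 and 0.69). Values of a pair come from the same library, so that differences in tissue composition between mice enter both, and the correlations are given as a description.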

How the data were processed

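TRAP RNASeq libraries of 45 mouse kidneys (ribosomal depletion, paired reads of a NovaSeq) were analysed, grouped by sex and genotype from the labels, which name the genotypes WT, SKO and DKO. Per the labels and the study's methods the authors used fastp 0.20.0 for trimming and STAR 2.7.9 for alignment (GRCm38.p6), and deposited raw counts per gene made by featureCounts 2.0.0, with strand and multimapping options not given in the sources used here. The authors also deposited TPM values, in a table per sex, of the protein-coding genes that reached 6 counts in 20% or more of that sex. Counts were tested with the quasi-likelihood test of edgeR 4.0.16 (TMM, R 4.3.3) on those genes, pairwise within a sex, between sexes within a genotype, and as interactions over 45 mice, with Benjamini-Hochberg adjustment over all genes tested and a threshold of 0.05. The study used DESeq2, which with limma 3.58.1 (log2 of TPM plus 1 or 0.1) and DESeq2 1.42.0 served here as an alternative. Fits were tested on simulated data. No mice of a group were duplicates (lowest chi-square per degree of freedom of 149 pairs 51.4). Gene symbols were matched for 55141 of 55401 identifiers. The members and gene lists were chosen with earlier results of these data known. Named from the other lists were, per list, the 3 genes with the smallest p between genotypes, the 2 with the smallest p between sexes, and any called the same way in both sexes. Gene symbols beyond that (Gpx3, Gsto2, Gsta3, Gstp1, Gstz1, Fth1) name the members behind a count of 5 or fewer and were chosen after their values were seen. So were the markers Slc12a1 and Csf1r, named because they were called in Pkd1KO males against both other genotypes. Promoter windows are from RefSeq. Error bars cover spread between mice, and counting intervals were not needed at these depths except for Slc7a11. For Nfe2l2 and Nqo1 the 3 most correlated genes outside the list were named, and the same result for Gclm is not reported here.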

Additional observations from a re-analysis of the deposited data

Results flagged for a closer look

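In each group of 6 to 9 mice the gap between the highest or lowest value of a member and its neighbour was compared, on log2 CPM, with Dixon's 95% critical value. Of 60 groups tested, 6 exceeded it, where chance gives about 1 in 20, or 3. They fall on 4 mice. Female Pkd1KO+ciliaKO replicate 1 was the highest of its group in Nfe2l2 (268 CPM, next 188), Keap1 (41.9 CPM, next 37.2) and Hmox1 (46.3 CPM, next 19.1). It also had the lowest Gclm of its group, 214 CPM. Without this mouse the log2 difference of Nfe2l2 between female Pkd1KO and Pkd1KO+ciliaKO was −0.03 in place of −0.14, and that of Hmox1 was 0.11 in place of −0.24, and no call of these 3 genes changed.

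Male noncystic replicate 5 was the highest of its group in Hmox1 (85.5 CPM, next 23.5). Female noncystic replicate 1 was the highest of its group in Gsta2 (529 CPM, next 449), and without it the log2 difference of Gsta2 between female Pkd1KO and noncystic was −0.42 (edgeR, adjusted p = 0.00762). Female noncystic replicate 4 was the lowest of its group in Slc7a11 (0.0415 CPM from 4 counts, next 0.138 CPM). No cause of these values was tested. No member differed between the sexes in its genotype effect past the threshold.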

How the results depend on the processing

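Of 92 recounts of the called members under other settings, 78 were within 1.5 times the main count, and no called value changed sign in any setting. In males, Pkd1KO versus noncystic gave 2 members with limma voom and 0 without the 4 males that stand apart (main 1). In females, Pkd1KO versus noncystic gave 2 with DESeq2 (main 1), Pkd1KO versus Pkd1KO+ciliaKO gave 1 with the replicate block (main 3), and Pkd1KO+ciliaKO versus noncystic gave 0 with the replicate block and 0 on either TPM scale (main 1). Between sexes, noncystic mice gave 4 with limma voom and 4 without the 4 males (main 2), Pkd1KO gave 5 with DESeq2 and 6 with limma voom (main 3), and Pkd1KO+ciliaKO gave 6 with limma voom and 5 without the 4 males (main 2). The interaction of Pkd1KO and Pkd1KO+ciliaKO gave 1 with DESeq2 (main 0). The shares of all genes called under these settings are not given here. With 1 mouse left out the counts ranged from 0 to 1, 1 to 1 and 0 to 0 in the male and 1 to 1, 1 to 3 and 0 to 1 in the female genotype comparisons (Pkd1KO versus noncystic, Pkd1KO versus Pkd1KO+ciliaKO, Pkd1KO+ciliaKO versus noncystic), and from 1 to 4, 2 to 4 and 2 to 2 between sexes in noncystic, Pkd1KO and Pkd1KO+ciliaKO. In no comparison did every same-numbered pair of mice correlate above 0.1, but 4 of 7 pairs did in male Pkd1KO versus noncystic. These values cannot tell whether replicate numbers pair some of the mice. The replicate block moved no other count by over 1.5 times. The calls it ended were those of Gclm in both female comparisons, Txnrd1 in females and Keap1 between the Pkd1KO sexes. Of 106 member differences not called, 15 were called under at least 1 alternative, Txnrd1 in 5 comparisons among them. For each change the cause was not tested. Glutathione S-transferase counts, recomputed by a choice made after seeing the data, stayed within 1.5 times in 68 of 92. Depth limits only Slc7a11.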
